A study of Mus musculus with 6 samples.

Results

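Ultraconserved regions are stretches of the genome that are identical in human, mouse and rat. Some lie in exons or alternative exons of genes for RNA-processing proteins, and many others lie in introns or far from genes, where a number of them act as enhancers of developmental genes. RNA is made from many of them, on one strand or on both, and such transcribed ultraconserved regions have been studied above all in cancer cells. The array held a probe for each strand of 481 ultraconserved regions, numbered from 1 to 483 in the usual uc. series, which gave 962 strand probes out of 59709 probes in all. The rule for members used the identifier alone, a region name followed by + or -, and no measured value. It was set with earlier results of these data known.

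RNA came from primary microglia of C57BL/6 mice, the resident macrophages of the brain, taken from newborn (P0) mixed glial cultures of the cerebrum by shaking after 10 to 14 days. There were 3 arrays of resting microglia, collected after 24 h without stimulation, and 3 arrays of microglia given 10 ng/ml interleukin-4 (IL-4) for 24 h, a cytokine that drives microglia toward the M2 state. The RNA was labelled with Cy3 from random primers and hybridized in 1 colour, and the labels do not say whether the arrays of a group came from separate cultures, so the p-values measure the spread between these arrays, which may be technical. In such bulk cultures fewer cells of a type and less RNA per cell cannot be told apart. None of the 32 listed marker genes of microglia and other brain cells, and none of the 14 listed RNA-processing genes, could be named on the array through the tables used here, so the labelled cell type was not checked. The strand signs are those of the array's identifiers, and the genome to which + and - refer is not given in the sources used here. Sequences and positions of the regions were not analysed here.

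The arrays differed in background, and IL-4 array 2 stood apart. The spots of the probes that the array names as negative gave a median signal before normalization of 2.70, 5.23 and 2.67 in the resting group and of 4.64, 71.2 and 7.37 in the IL-4 group, with arrays always in the order 1, 2, 3. On IL-4 array 2, 67.7% of these negative spots were marked well above background by the scanner software, against 0.417% to 11% on the other 5 arrays. On IL-4 array 1, 551 of the 962 strand probes (57.3%) shared the array's lowest signal, and such values have no order among themselves. Values without one of these arrays are given where a result rests on it. Only IL-4 array 2 shared a scan with the 3 resting arrays, while IL-4 arrays 1 and 3 had a scan each. Without IL-4 array 2, effects of IL-4 and of the scan cannot be told apart. With it, that array alone separates them.

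Most ultraconserved-region probes were dim in microglia. Of the 962 strand probes, 350 were well above background on no array, 267 on 1 array, 83 on 2, 60 on 3, 53 on 4, 48 on 5 and 101 (10.5%) on all 6. IL-4 array 2 was the single array in 226 of the 267. Neither strand was well above background on any array in 86 of the 481 regions. With a threshold set by the negative spots in place of the software's mark, namely the 95th percentile of their signal on the same array, 71 strand probes were above it on all 6 arrays, and 68 of these were among the 101.

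The share of ultraconserved-region probes well above background was 33.2%, 19.4% and 33.0% on resting arrays 1 to 3 and 21.3%, 53.3% and 13.5% on IL-4 arrays 1 to 3. The resting arrays fell inside the range of the IL-4 arrays, with IL-4 array 2 the highest of all and IL-4 array 3 the lowest. The means were 28.5% ± 7.86 (SD, n = 3) in resting and 29.4% ± 21.1 (SD, n = 3) in IL-4-stimulated microglia, a difference of 0.866 percentage points (exact two-sided permutation test, p = 0.9, where 0.1 is the smallest p that 3 against 3 can give). Above the negative threshold, the shares were 25.4%, 21.3% and 23.9% in resting and 19.9%, 10.7% and 24.8% in IL-4-stimulated microglia, and IL-4 array 2 was now the lowest. That difference was -5.06 percentage points (exact permutation test, p = 0.3), so the direction turned with the way detection was defined.

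Ultraconserved-region probes were detected less often than probes for exons of mouse long intergenic noncoding RNAs (lincRNAs), the largest other class with a probe for each strand, and about as often as the smaller classes of lincRNA locus and human lincRNA probes. The lincRNA exon probes were well above background at 53.1%, 31.1% and 52.5% in resting and 36.0%, 73.6% and 25.9% in IL-4-stimulated microglia. The share of ultraconserved-region probes was lower on 6 of 6 arrays, by 16.4 percentage points on average (exact two-sided sign-flip permutation test over the arrays, p = 0.031, the smallest p that 6 arrays can give). With the negative threshold it was lower on 6 of 6 arrays by 15.3 percentage points (exact test, p = 0.031). The shares were 33.9%, 19.5% and 37.5% in resting and 24.2%, 67.7% and 11.9% with IL-4 for lincRNA locus probes, and 32.7%, 17% and 35.2% in resting and 22.1%, 61.3% and 10.2% with IL-4 for human lincRNA probes, and these 2 classes were not tested against the ultraconserved regions. All 6 arrays detected 10.5% of ultraconserved-region probes, 20.6% of lincRNA exon, 9.41% of lincRNA locus and 7.89% of human lincRNA probes, and 31.6% of all probes. The share detected on none of the arrays was 36.4% for ultraconserved-region, 16% for lincRNA exon, 23.4% for lincRNA locus and 29.4% for human lincRNA probes, and 12.1% for all probes.

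**Figure D1:**
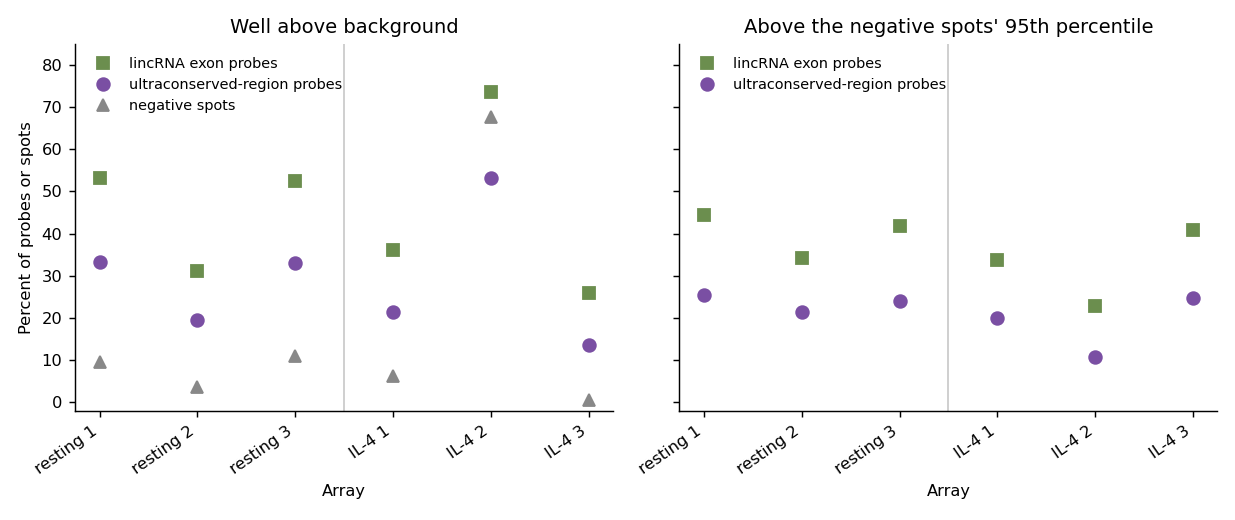
Share of probes or spots detected on each array (vertical axis, percent), by the software's mark for well above background (left) and by the 95th percentile of the negative spots of the same array (right), with 1 point per array and class. The ultraconserved-region probes lie below the lincRNA exon probes on all 6 arrays in both panels, and on IL-4 array 2 the negative spots reach 67.7% in the left panel.

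The plus and minus strands were detected at similar rates. Plus-strand probes were well above background at 32.6%, 17.9% and 33.3% in resting and 21.6%, 54.3% and 11.9% in IL-4-stimulated microglia, and minus-strand probes at 33.7%, 21.0% and 32.6% and at 21.0%, 52.4% and 15.2%. The plus share was lower on 3 of 6 arrays, and the mean difference was -0.728 percentage points (exact sign-flip permutation test, p = 0.4375). All 6 arrays detected 42 plus-strand and 59 minus-strand probes.

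Detection on all 6 arrays was mostly of 1 strand, while both strands were well above background on at least 1 array in 217 regions and a single strand in 178. The last 2 counts include IL-4 array 2, the single array for 226 of the 267 strand probes detected on 1 array. Both strands were well above background on all 6 arrays in 9 regions, uc.46, uc.75, uc.77, uc.154, uc.188, uc.268, uc.293, uc.456 and uc.472, and exactly 1 strand was so in 83 regions, the plus strand in 33 and the minus strand in 50. In 17 regions 1 strand was well above background on all 6 arrays and the other on none, with 8 plus and 9 minus. This is 3.53% of the regions, against 5.03% of the opposite-strand pairs of lincRNA exon probes, 4.71% of those of lincRNA loci and 3.29% of those of human lincRNAs. Without IL-4 array 2, where negative spots also passed the mark, the count was 48 regions. The 2 probes of a region differ in sequence and can bind with different strength, so the strand signals that follow are not ratios of RNA amounts. Where a strand was not well above background on any array, its level is only a bound, and its readings are given as measured and set no size to the difference.

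In uc.460 the minus strand alone was detected. On the log2 scale of the normalized signal, its minus-strand probe read 10.60, 10.05 and 10.08 in resting and 10.46, 10.13 and 9.09 in IL-4-stimulated microglia. Its plus-strand probe read 2.31, 2.02 and 2.17 in resting and 2.54, 2.09 and 2.83 in IL-4-stimulated microglia. The strands were far apart on every array, and the groups overlapped on both strands.

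The minus-strand probe of uc.448 read 8.67, 8.96 and 8.44 in resting and 9.38, 7.35 and 8.27 in IL-4-stimulated microglia, with a plus-strand probe between 2.06 and 2.54. The minus-strand probe of uc.455 read 10.25, 9.65 and 8.05 in resting and 9.75, 9.30 and 9.36 with IL-4, while its plus-strand probe lay between 2.30 and 5.07 and never well above background. In human annotation uc.455 lies in RBM39, which encodes a splicing factor. The minus-strand probe of uc.10 read 7.12, 8.23 and 7.97 in resting and 6.74, 8.54 and 7.33 with IL-4, and that of uc.483 read 7.0, 7.16 and 7.48 in resting and 8.38, 6.62 and 6.49 with IL-4. The groups overlapped in both. The other 4 regions with the minus strand alone were uc.459, uc.366, uc.474 and uc.49.

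In uc.356 the plus strand alone was detected, with a probe at 10.14, 9.53 and 8.85 in resting and 10.16, 8.69 and 8.89 in IL-4-stimulated microglia. Its minus-strand probe lay between 2.52 and 3.78 on the log2 scale. The plus-strand probe of uc.86 read 8.38, 8.48 and 8.22 in resting and 8.73, 7.87 and 7.60 with IL-4, with a minus-strand probe between 1.95 and 3.54. Resting and IL-4 arrays overlapped for both plus-strand probes. The plus-strand probe of uc.102 lay between 7.28 and 8.60, that of uc.417 between 6.75 and 8.33 and that of uc.426 between 5.84 and 7.99. The other 3 regions with the plus strand alone were uc.352, uc.267 and uc.113.

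**Figure D2:**
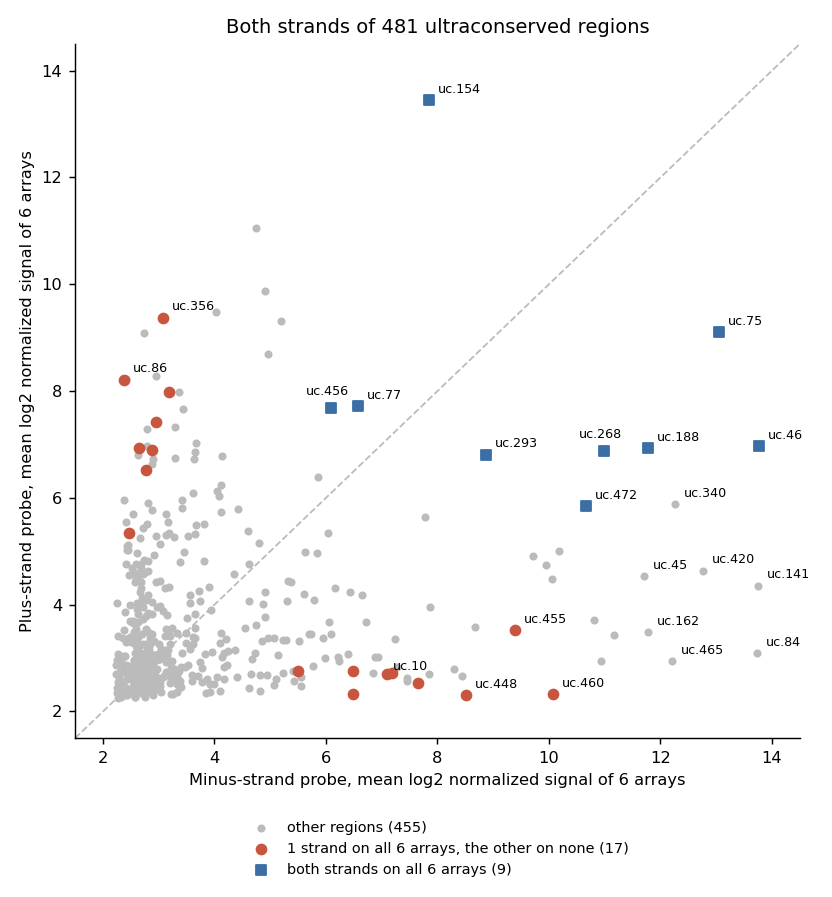
Mean log2 normalized signal over the 6 arrays of the minus-strand probe (horizontal axis) and the plus-strand probe (vertical axis) of each of the 481 regions, with equal signals on the dashed line. The 17 regions with 1 strand well above background on all 6 arrays and the other on none lie near the 2 axes, where the dim strand is only a bound, and 6 of the 9 regions with both strands detected lie on the minus side of the line.

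In the 9 regions with both strands well above background on all 6 arrays, the minus-strand probe was the brighter on every array in 6 and the plus-strand probe in 2, and uc.77 was mixed. The minus-strand probe of uc.46 read 13.39, 14.15 and 13.52 in resting and 14.11, 13.60 and 13.87 in IL-4-stimulated microglia, and its plus-strand probe 6.45, 7.70 and 7.31 in resting and 6.62, 6.72 and 7.03 with IL-4. In human annotation uc.46 lies in HNRNPU, which encodes an RNA-binding protein of the nuclear matrix. The opposite order held for uc.154, whose plus-strand probe read 13.16, 13.80 and 13.44 in resting and 13.59, 13.16 and 13.53 with IL-4, and whose minus-strand probe read 6.57, 8.31 and 8.56 in resting and 7.95, 7.76 and 7.90 with IL-4. Neither region showed a separation of the groups on either strand.

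The 10 brightest ultraconserved-region probes were, by mean log2 signal over the 6 arrays, uc.46- (13.77), uc.141- (13.75), uc.84- (13.74), uc.154+ (13.45), uc.75- (13.05), uc.420- (12.77), uc.340- (12.26), uc.465- (12.21), uc.162- (11.78) and uc.188- (11.77). All but uc.154+ are minus-strand probes. Neighbours in this order lay closer than the larger of their SDs over the arrays, except uc.154+ and uc.75- and then uc.75- and uc.420-, and the order is of spot signals, which also depend on how strongly each probe binds. On each array, 8 to 10 of these probes were among that array's 10 brightest ultraconserved-region probes. For uc.84- the spot on IL-4 array 1 was an outlier and was left out, so its mean is over 5 arrays.

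None (0) of these 10 probes passed the limits of the comparison with IL-4 described further on, which does not show that they were alike in both groups. The uc.141- probe read 13.57, 14.31 and 13.76 in resting and 13.55, 13.65 and 13.66 in IL-4-stimulated microglia, a log2 change of -0.26. The uc.75- probe read 13.15, 12.94 and 13.12 in resting and 12.69, 13.31 and 13.11 with IL-4, a log2 change of -0.03 ± 0.36 (SE, limma, unadjusted p = 0.933). The groups overlapped for both probes. The widest spread between arrays was that of uc.162-, at 11.93, 12.46 and 11.24 in resting and 12.94, 11.68 and 10.41 with IL-4, and of uc.340-, at 12.81, 12.56 and 11.57 in resting and 13.38, 11.98 and 11.28 with IL-4. In both, IL-4 array 1 was the highest array and IL-4 array 3 the lowest.

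**Figure D3:**
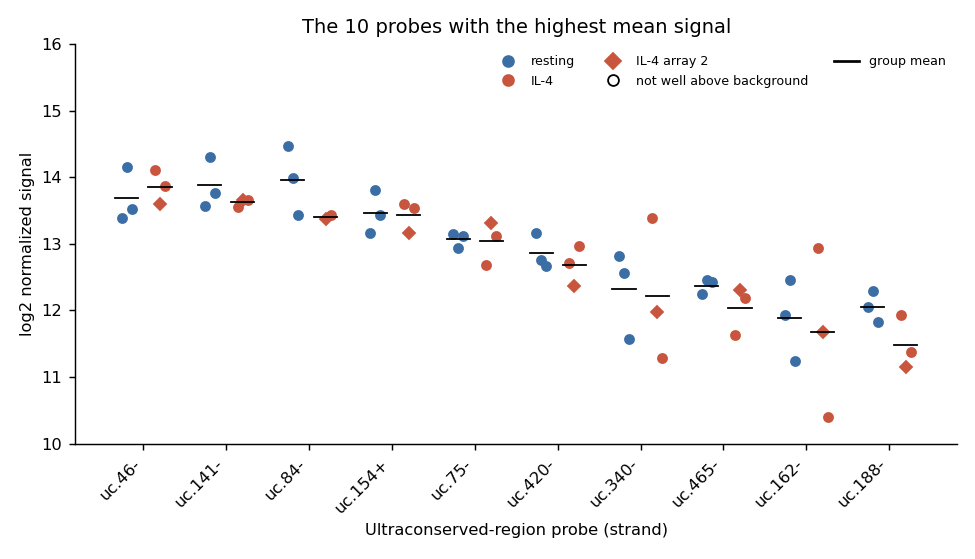
Log2 normalized signal (vertical axis) on each array of the 10 ultraconserved-region probes with the highest mean signal, with 1 point per array and group means as bars. Resting and IL-4 points overlap in most probes, and uc.340- and uc.162- spread most within the IL-4 group.

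Some of the detected probes stood in runs of region numbers, which follow the order along the human chromosomes. Of the 101 strand probes well above background on all 6 arrays, 27 (26.7%) had a neighbouring number on the same strand also so detected. The share of 10.5% among all strand probes is for single probes, while a neighbour on either side counted here. The shares are therefore not like for like. No test was made of this count, so whether detected probes cluster by number is not known. The longest run was on the minus strand from uc.45 to uc.50, with 6 regions. In it uc.45- read 12.04, 11.38 and 11.64 in resting and 11.47, 11.75 and 11.94 with IL-4, while uc.47- lay between 5.43 and 6.42, so signal was uneven along the run. In human annotation uc.45, like uc.46, lies in HNRNPU.

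The minus-strand run from uc.418 to uc.420 held uc.418- at 9.66, 10.48 and 9.94 in resting and 9.86, 9.96 and 10.43 with IL-4, uc.419- between 9.35 and 9.92, and uc.420- between 12.37 and 13.16 on the log2 scale. In human annotation uc.419 lies in SRSF1, which encodes a serine and arginine-rich splicing factor. The groups overlapped for all 3. The other runs were pairs, namely 162 and 163, 455 and 456, and 459 and 460 on the minus strand, and 16 and 17, 153 and 154, 267 and 268, 355 and 356, 426 and 427, and 471 and 472 on the plus strand.

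The comparison of IL-4-stimulated with resting microglia asked which transcripts change on M2 polarization. Only probes that rose well above background on 3 arrays or more were tested, which left 262 of the 962 strand probes (27.2%, from 214 regions, 133 plus and 129 minus) and 32992 of all 59709 probes (55.3%). A probe was called when limma gave it at least a 2-fold change together with an unadjusted P no higher than 0.05, which are the study's limits. Because the filter also lets in a probe that was bright in 1 group alone, the tested members are not a neutral sample of all members.

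With IL-4, 14 ultraconserved-region probes were lower and 1 was higher at these limits, 15 of the 262 tested (5.73%), beside 4.94% of all tested probes. In the lower direction the background was 3.84% of all tested probes and in the higher direction 1.1%. The share among ultraconserved-region probes was thus near that of the whole array, and the count is no result about the regions as a class. None (0) of them passed once limma's p-values were adjusted by Benjamini and Hochberg's method over the whole array, where the smallest adjusted p was 0.893, and for 16 ultraconserved-region probes the unadjusted P was 0.05 or lower. Every single change given below is therefore at the unadjusted limits.

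The median log2 change of the tested ultraconserved-region probes was -0.46, with 196 of 262 below 0, and the median over all tested probes was -0.15. The size of this shift depended on the processing. Over all 962 strand probes, with no filter, the medians were -0.07 for the ultraconserved regions and 0.0037 for the whole array. With scaling to the 75th percentile they were -0.18 and -0.09, and with normexp background correction -0.15 and -0.06. The median was -0.37 among lincRNA exon probes, -0.47 among lincRNA loci and -0.61 among human lincRNA probes. The 3 IL-4 arrays lay below the 3 resting arrays in 25 of the 261 members with a value on every array (9.58%, beside 6.28% of all tested probes) and above them in 4 (1.53%, beside 4.57%).

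IL-4 array 2 moved with this shift. The median log2 signal of the tested ultraconserved-region probes was 5.66, 6.02 and 5.84 in resting and 5.91, 4.38 and 5.52 in IL-4-stimulated microglia. IL-4 array 2 was the lowest of the 6 arrays in 126 of the 261 probes (48.3%), and in 8 of the 14 that were lower with IL-4. Without it the median log2 change was -0.17, beside 0.0205 over all tested probes. Of 219 ultraconserved-region probes then tested, 9 passed the limits, 6 of them among the 15, beside 4.41% of all tested probes. Dim probes also varied more: the median SD within a group was 0.612 log2 units for the 101 probes detected on all 6 arrays, of which 3 passed the limits with a median change of -0.29, and 1.06 for the 161 probes detected on 3 to 5 arrays, of which 12 passed with a median of -0.59.

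**Figure D4:**
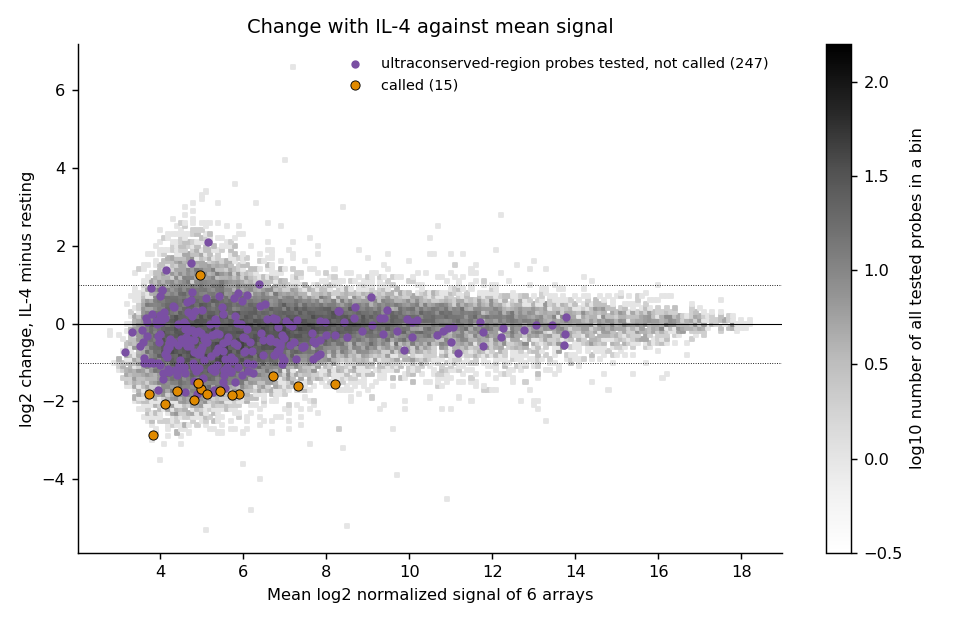
Log2 change from resting to IL-4 (vertical axis) against mean log2 normalized signal over the 6 arrays (horizontal axis) for the 262 tested ultraconserved-region probes, over all tested probes in grey bins, with dotted lines at a fold change of 2. The 15 probes past the limits, 14 of them below 0, lie within the cloud of all probes, and the 10 brightest ultraconserved-region probes lie between the dotted lines.

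Of the 15 probes, 10 were on the plus and 5 on the minus strand, and they came from 14 regions, since uc.228 was called on both strands. In 11 of them the groups did not overlap, and 3 were detected by every array. The limits themselves favour probes whose groups do not overlap, so the 11 add no support to the calls. On IL-4 array 1 the signal was the array's lowest in 3.

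The first probe from the left in the plot of the called probes is a plus-strand probe. It read 4.16, 6.04 and 5.55 in resting and 2.54, 2.12 and 2.54 in IL-4-stimulated microglia, so the groups did not overlap. All 3 resting arrays but no IL-4 array had it well above background, so it entered the test through the resting group alone and its level with IL-4 is only a bound. Measured against each IL-4 array's lowest signal well above background, it was lower with IL-4 by at least 1.84-fold (adjusted p = 0.893 from limma). This bound ran from 1.45 to 2.84 with each of the other arrays left out and gave no fold without IL-4 array 2, whose lowest signal well above background was 2.61 against 5.03 and 5.48 on the other IL-4 arrays. On IL-4 array 2 a probe at 2.61, uc.457+, had a signal before normalization of 43.5, below that array's negative median of 71.2. The mark is no sure limit of detection there, so the bound itself is uncertain. The signal was above the negative threshold on 2 of the 6 arrays, and the minus-strand probe of the same region was not tested.

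Both strands of uc.228 passed the limits, with lower signal with IL-4. The plus-strand probe read 6.48, 6.73 and 6.72 in resting and 4.46, 4.20 and 5.77 in IL-4-stimulated microglia, with no overlap and a log2 change of -1.83 ± 0.49 (SE, limma, unadjusted p = 0.00737). The minus-strand probe read 4.27, 6.06 and 5.15 in resting and 2.54, 2.43 and 4.29 with IL-4, where resting array 1 lay just below IL-4 array 3. On the minus strand no IL-4 array was well above background, so this probe too entered the test through the resting group alone. It was at least 1.73-fold lower with IL-4 (adjusted p = 0.893 from limma), a bound that gave no fold without IL-4 array 2, and it lost the call without IL-4 array 1 or 2. This bound too is uncertain, since it rests on the lowest signal well above background of IL-4 array 2, which lay below that array's negative median.

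Next in size among the non-overlapping falls of probes detected on all 3 resting arrays were uc.212+, uc.482+ and uc.47+. The uc.212+ probe read 6.38, 7.17 and 6.89 in resting and 4.10, 5.12 and 5.74 with IL-4 (log2 change -1.82 ± 0.51, SE, limma, unadjusted p = 0.0094). The uc.482+ probe read 5.69, 6.34 and 6.09 in resting and 4.56, 2.96 and 5.16 with IL-4 (-1.81 ± 0.61, unadjusted p = 0.0208 from limma). The uc.47+ probe read 5.53, 5.90 and 6.01 in resting and 3.38, 3.72 and 5.31 with IL-4 (-1.68 ± 0.56, unadjusted p = 0.0208 from limma). In these 3 probes the SD (n = 3) was 0.25 to 0.40 log2 units in resting and 0.82 to 1.14 with IL-4. Only 1 IL-4 array, array 2, had uc.482+ and uc.47+ well above background. Their signals there before normalization, 59.4 and 92.8, were below that array's negative threshold of 210.6. Their levels with IL-4, and so the sizes of their falls, are therefore uncertain. The uc.47+ probe did not pass without IL-4 array 1 (log2 change -1.28, unadjusted p = 0.0593 from limma) or without IL-4 array 2 (-1.62, unadjusted p = 0.0534), nor without resting array 2 or 3, and uc.482+ did not pass without resting array 2 or 3. Of these, uc.47+ lies opposite a minus-strand probe that was well above background on all 6 arrays and overlapped between the groups.

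Among the probes that were well above background on all 6 arrays, uc.415+ had the lowest p of the 3 called. It read 8.97, 9.56 and 8.45 in resting and 7.16, 7.86 and 7.32 in IL-4-stimulated microglia, a log2 change of -1.55 ± 0.44 (SE, limma, unadjusted p = 0.00935), and IL-4 array 2 was the highest of the IL-4 arrays. The uc.129+ probe read 8.96, 8.01 and 7.41 in resting and 7.20, 5.34 and 7.05 with IL-4 (log2 change -1.60 ± 0.65, unadjusted p = 0.0437 from limma). The uc.363- probe read 7.24, 7.85 and 7.09 in resting and 6.49, 5.12 and 6.50 with IL-4 (log2 change -1.35 ± 0.51, unadjusted p = 0.0316 from limma). In both of the latter IL-4 array 2 was the lowest array, and neither passed the limits without it. Their signals there before normalization, 157.3 and 146.4, were below that array's negative threshold of 210.6.

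The remaining falls were in dimmer probes. Without overlap, uc.266+ had a log2 change of -1.73, uc.457+ of -1.80 and uc.155- of -1.53, and with overlap uc.325- had one of -1.73 and uc.201+ of -1.96. Without IL-4 array 1 these last 2 had log2 changes of -1.36 and -1.27 and without IL-4 array 2 of -1.52 and -1.86, past the limits in neither case. The uc.266+ and uc.457+ probes reached the filter of 3 arrays only through resting arrays 1 and 3 and IL-4 array 2. On IL-4 array 2 their signals before normalization, 55.4 and 43.5, were below the negative median of 71.2. Without that array neither could be tested. Among the IL-4 arrays, only array 2 had uc.155- well above background. Its signal there, 87.3 before normalization, was below the negative threshold of 210.6. The single rise was that of uc.2-, which read 4.0, 4.90 and 4.09 in resting and 4.87, 6.39 and 5.52 with IL-4 (log2 change 1.26 ± 0.51, SE, limma, unadjusted p = 0.0432). Resting array 2 and IL-4 array 1 overlapped in it, and IL-4 array 2 was its highest array. It too was well above background only on resting arrays 1 and 3 and IL-4 array 2, and could not be tested without the latter. Its signal there before normalization, 220.8, was just above the negative threshold of 210.6. With each array left out in turn, uc.228+, uc.212+ and uc.415+ passed the limits in 6 of 6 fits, and uc.266+ and the first probe of the plot in the 3 fits in which enough arrays remained to test them. The other 10 lost the call in at least 1 such fit. The uc.415+ probe was above the negative threshold on all 6 arrays. The uc.228+ and uc.212+ probes were above it on 4 arrays and below it on IL-4 arrays 1 and 2. With normexp background correction only uc.415+ and uc.129+ passed, while uc.228+ changed by -0.75 and uc.212+ by -0.72 log2 units, and with the scan as a block uc.415+ did not pass (-1.13, unadjusted p = 0.102 from limma).

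**Figure D5:**
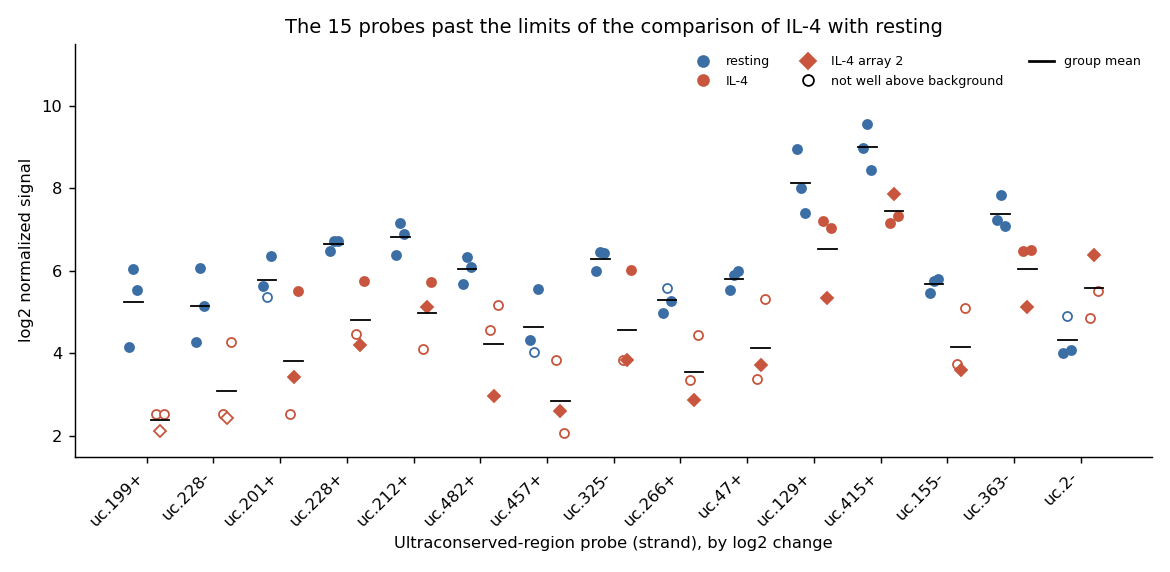
Log2 normalized signal (vertical axis) on each array of the 15 ultraconserved-region probes past the limits, in order of log2 change, with open symbols where the spot was not well above background and diamonds for IL-4 array 2. In the first probe and in uc.228- all IL-4 symbols are open, and uc.415+, uc.129+ and uc.363- are filled on all 6 arrays.

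Whether IL-4 changed the balance of the strands was tested on the plus minus minus difference in log2 signal in the 48 regions with both strands tested. Of these, 1 passed the same limits, beside 3.06% of the 523 opposite-strand pairs of the array. It was one of the regions with a described transcript, with differences of -1.39, -1.21 and -0.95 in resting and -0.12, 5.85 and 0.03 in IL-4-stimulated microglia, a change of 3.11 ± 1.37 log2 units (SE, limma, unadjusted p = 0.0425, adjusted p = 0.896). The groups did not overlap, but IL-4 array 2 lay far from the others. The plus-strand probe was well above background on 3 arrays, resting array 3 and IL-4 arrays 1 and 2. Without IL-4 array 2 the region could therefore not be tested, and 0 of the 27 regions still tested passed. On IL-4 array 2 the plus-strand probe read 8.85 against 3.66 to 5.43 on the other 5, and its own change of 2.11 ± 1.10 did not pass the limits (unadjusted p = 0.0955 from limma). It passed with the replicate block (unadjusted p = 0.0483), with the scan as a block (4.75, unadjusted p = 0.000192) and without IL-4 array 3 (2.90, unadjusted p = 0.0243 from limma).

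Among 15 regions with a transcript described in the literature, 30 strand probes in all, 11 were tested, 0 were called, 1 was well above background on all 6 arrays and 8 on none. The one was a minus-strand probe of a region whose transcript is known from work on the gut epithelium, at 5.95, 8.31 and 8.15 in resting and 6.29, 7.85 and 6.85 in IL-4-stimulated microglia, where resting array 1 was the lowest and the groups overlapped. Nearest to the limits was the plus-strand probe of the region that lies in OGT in human annotation, the gene of the enzyme that adds N-acetylglucosamine to proteins inside the cell. It read 6.04, 6.54 and 5.88 in resting and 5.19, 2.55 and 5.42 with IL-4 (log2 change -1.76 ± 0.78, SE, limma, unadjusted p = 0.0591). Its groups did not overlap, and IL-4 array 2 was far below the rest.

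For the region in the RNA-binding protein gene PCBP2 of human annotation, whose transcript was described in liver cancer, the plus-strand probe read 5.53, 5.49 and 6.09 in resting and 6.62, 5.94 and 5.11 with IL-4, and the minus-strand probe 4.85, 3.05 and 5.37 and 3.34, 5.19 and 4.73. Both overlapped, with log2 changes of 0.19 ± 0.49 and 0.00 ± 0.75 (SE, limma). The uc.160- probe, from a region known for a transcript silenced by CpG island methylation in cancer, had a log2 change of -0.58, short of the limits. The same holds for uc.73+ at -1.18 and for 4 more tested probes, from -1.0 to 0.25. Neither strand was detected on enough arrays to be tested in 7 of the 15 regions, among them uc.8, uc.63 and the regions in the splicing factor genes TRA2B and SRSF3. Some calls appeared with other settings. Without IL-4 array 1, where most strand probes share the lowest signal, uc.73+ passed at -2.07 (unadjusted p = 0.00381 from limma), the OGT probe at -2.18 (unadjusted p = 0.0447) and 2 of the 4 others at -1.70 and -1.60. The OGT probe also passed without IL-4 array 3 (-2.31, unadjusted p = 0.0336 from limma) and with scaling to the 75th percentile (-1.34, unadjusted p = 0.0327), and the same 4 probes and uc.160- passed with the scan as a block.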

How the data were processed

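The 6 arrays of primary mouse microglia, 3 resting and 3 IL-4, were grouped by the sample labels. The authors deposited the spot intensity of each array as Feature Extraction (version 10.7.3.1, per the file headers) wrote it, with background removed inside the array and arrays not yet normalized to each other. Marks for signal well above background, outliers and saturation are deposited as 0 or 1. A further table deposited by the authors holds quantile-normalized log2 values for 14055 probes, 216 of them in ultraconserved regions, and served as an alternative.

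Of 62513 spots, 59994 remained after leaving out 1319 control spots and 1200 negative spots. Outlier spots, which touched 3 ultraconserved-region probes, were left out, log2 processed signals were quantile normalized and spots of a probe were averaged. No ultraconserved-region spot was saturated. Probes detected well above background on 3 or more arrays and with 2 or more values a group entered a fit in limma (version 3.58.1, under R 4.3.3) whose single term was the condition. A level not well above background on any array of a group is only a bound, so a fold is then given as "at least", from the mean of the brighter group against the mean, over the dim group's arrays, of the higher of the probe's own signal and the array's lowest signal well above background. On IL-4 array 2 that lowest signal lay below the negative median, which leaves such bounds uncertain. Strand differences were fitted over all opposite-strand pairs with both probes tested. The fits were tested on simulated data. Plots were made in matplotlib 3.10.9.

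One scan held the 3 resting arrays together with IL-4 array 2, while IL-4 arrays 1 and 3 had a scan each. Deviations of same-numbered arrays from their group means correlated at -0.22, 0.14 and -0.09, so the numbers were not taken to pair the samples. The number of arrays limits the precision.

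The members and lists were chosen with earlier results of these data known. Named were the 5 largest rises and falls past the limits without overlap and well above background on all 3 arrays of a group (no rise met this), the 10 brightest probes, the 5 widest strand gaps in each direction among regions detected on 1 strand alone, regions with a changed strand difference, 15 regions with a described transcript, and a region given as an example when the members were defined. The other called probes, the other regions with a single strand detected and the runs of neighbouring numbers were named after their values were seen. Gene names beside regions are background knowledge of human annotation. RefSeq (GRCm38.p6) named 116 of the 123 probes with a RefSeq accession, and none was a listed gene. Sequences of the regions were not used here.

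Alternatives covered the normalization, background correction, outlier marks, detection filter and mark, the replicate or scan as a block, an intensity trend, the methods' t-test, the authors' table and each array left out.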

Additional observations from a re-analysis of the deposited data

How the results depend on the processing

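Counts of ultraconserved-region probes past the limits moved with the processing, while the median log2 change was below 0 in every setting run but ranged between -0.07 (no filter on dim probes) and -0.999 (scan as a block). The main count was 15 (1 higher, 14 lower). It was 13 (2 higher, 11 lower) with scaling to the 75th percentile, where 2 regions had a changed strand difference in place of 1, and 2 (0 higher, 2 lower) with normexp background correction. With the scan as a block, which sets IL-4 array 2 alone against the resting arrays, it was 105 (13 higher, 92 lower), and 7 regions then had a changed strand difference. With probes well above background on all 6 arrays alone it was 4 (0 higher, 4 lower), with no filter on dim probes 51 (15 higher, 36 lower) and 21 regions, and with the methods' t-test 6 (0 higher, 6 lower). With an intensity trend 0 were higher. With normexp, the filter on all 6 arrays, the authors' table or the methods' t-test, 0 regions had a changed strand difference. With the replicate block, 17 passed (2 higher, 15 lower). The cause of these moves was not tested, apart from the number of probes tested, 101 and 962 under the stricter filter and with none.

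With each array left out in turn, 6 (without resting array 3) to 49 (without IL-4 array 1) probes passed, 0 to 7 higher and 6 to 46 lower, and 8, 9, 9 and 36 passed without resting array 1, resting array 2, IL-4 array 2 and IL-4 array 3. The median log2 change ran from -0.64 to -0.17, 0 to 3 regions had a changed strand difference, and 0 probes passed after adjustment by limma throughout. Of all tested probes, 2.39% passed without resting array 3, 11.8% without IL-4 array 1 and 9.34% without IL-4 array 3. The shares were 3.01%, 3.07% and 4.41% without resting array 1, resting array 2 and IL-4 array 2.

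The difference in detection between IL-4 and resting, 0.866 percentage points, turned to -0.728 with the software's weaker mark for signal above background and to -5.06 with the negative threshold, and ran from -11.1 (without IL-4 array 2) to 8.80 with an array left out, with -3.67 without resting array 2. The difference from lincRNA exon probes ran from -17.4 to -15.6, with p = 0.0625 in an exact permutation test, the smallest that 5 arrays can give. The 17 regions with 1 strand alone became 10 with the weaker mark, 34 with the negative threshold and 17 to 48 with an array left out, 48 without IL-4 array 2.

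Of single probes short of the limits, the log2 change of the minus-strand probe of the PCBP2 region turned from 0.00 to -0.0117 and that of another plus-strand probe with a described transcript from -0.22 to 0.21 with the 75th percentile, and that of the gut-epithelium region from -0.47 to 0.38 with the scan as a block. With an array left out, the PCBP2 region ran from -0.69 to 0.52 on the minus strand (-0.14 without IL-4 array 3) and from -0.17 to 0.55 on the plus strand, uc.160- from -1.01 to 0.0134, and another region's minus-strand probe from -0.18 to 0.90 (-0.07 without resting array 1, -0.03 without IL-4 array 1). The signal over background limits what can be said of the 700 strand probes that were not tested.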
